A study of Rattus norvegicus with 8 samples.

Results

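The 10 genes described here are response genes of 2 transcription factors that react to foreign chemicals and oxidative stress. *Hmox1*, *Nqo1*, *Gclc*, *Gclm*, *Txnrd1* and *Srxn1* are enzyme genes activated by Nrf2, and *Nfe2l2* encodes Nrf2 itself. *Ahr* encodes the aryl hydrocarbon receptor, and *Tiparp* and *Cyp1b1* are genes that it activates. Members were found by gene symbol, without use of their values, and all 10 listed symbols had rows. They covered 21 of 98356 alternative polyadenylation (APA) sites and 10 of 18003 gene symbols. The data are Whole Transcriptome Termini Sequencing (WTTS-Seq) libraries, in which reads mark the 3′ ends of polyadenylated RNA. Hypothalamic RNA came from adult male Long-Evans rats without a transgene, 1 library per rat. The 4 cannabis-exposed rats (replicates 1, 2, 3 and 5) received vapor of whole plant matter with 7.8% THC and 0.5% CBD over 10 min. The 4 air-treated controls (replicates 1, 2, 3 and 4) sat in the same kind of chamber with an empty vaporizer. All rats were free-feeding, and food was withheld for the 1 hr between exposure and tissue collection. The samples are bulk tissue, so fewer cells of a type and less RNA per cell cannot be told apart.

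As background, Nrf2 is held in the cytoplasm by Keap1, which marks it for degradation. Oxidants and electrophiles modify Keap1, and Nrf2 then enters the nucleus and binds antioxidant response elements beside small Maf proteins. The aryl hydrocarbon receptor rests in a cytoplasmic complex, is freed by ligands such as the polycyclic hydrocarbons of smoke, pairs with Arnt and binds xenobiotic response elements. Both routes are best known from liver and lung, and in brain the Nrf2 route is prominent in astrocytes. The comparison therefore asks whether transcripts of these routes differed in hypothalamus soon after a vapor session.

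Sequence from RefSeq promoters (build GRCr8, 250 bases before to 50 after a start) was matched by symbol for 9 of the 10 genes, with 2 starts for *Txnrd1*. *Hmox1* was not matched. The core of the antioxidant response element was searched as TGACNNNGC or TGAGNNNGC and the core of the xenobiotic response element as GCGTG, each on both strands, and overlaps between matches were allowed. The antioxidant core was in promoters of 5 of the 9 genes (*Gclm*, *Txnrd1*, *Srxn1*, *Nfe2l2*, *Tiparp*) and in 27.1% of all 33469 promoters. The xenobiotic core was in promoters of 6 of the 9 genes (*Nqo1*, *Gclc*, *Txnrd1*, *Srxn1*, *Tiparp*, *Cyp1b1*) and in 29.7% of all promoters. Both cores are therefore common, and a match describes the letters in these windows only. The windows below show examples of these matches for 3 Nrf2 targets and for both receptor targets, 30 bases each on the strand of the gene, with the match in capitals. For *Gclm* (chr2:213031953-213031982, plus strand, match from base -172 relative to the start), *Txnrd1* (chr7:22755963-22755992, minus strand, from base -78) and *Srxn1* (chr3:161064797-161064826, plus strand, from base -5) the capitals mark the antioxidant core. For *Tiparp* (chr2:152063621-152063650, plus strand, from base -136) and *Cyp1b1* (chr6:21094533-21094562, plus strand, from base -20) they mark the xenobiotic core. For *Gclm*, *Txnrd1* and *Tiparp* the core reads on the opposite strand.
Gclm: tgcggtttctGCTTAGTCAttgtcttccag
Txnrd1: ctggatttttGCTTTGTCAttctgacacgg
Srxn1: aaactcacccTGAGTCAGCgacccgacgcg
Tiparp: ctctgtcaggcgCACGCgcacgggaggcgg
Cyp1b1: agtagagggatgGCGTGtcgcctctggggt

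The libraries held from 1159811 to 3706778 reads on sites, and 1 read was worth 0.664 to 1.99 normalized counts, the unit of all levels here. A normalized count is a read number scaled by the size factor of its library. Air control 4 and cannabis 1, with 26.1% and 17.0% of sites without a read, stood apart from the other libraries. Their loadings on the first principal component of 9626 gene totals, which held 40.0% of the variance, were -0.70 and -0.46, while the other 6 libraries lay from 0.096 to 0.43. They are in different groups, and the differences of all 10 gene totals and of 5 leading sites were also computed without both. The tissue label was checked on 11 hypothalamic peptide genes, of which 10 had rows. Their summed level was 4556.2 to 6597.5 normalized counts in controls and 8826.3 to 11146.2 in cannabis-exposed rats. Of the 10, 2 (*Avp* and *Oxt*) were higher in the latter at P under 0.01 in limma. For both the adjusted P in limma was 0.999. The exact permutation P was 0.029 for *Avp* and 0.057 for *Oxt*, whose groups overlapped. *Avp*, with means of 1952.1 in controls and 4933.6 in cannabis-exposed rats, was the largest part of the difference in the sums. Lists for astrocytes (6 genes), microglia and macrophages (7), brain endothelium (4), pericytes and smooth muscle (5), choroid plexus and meninges (6) and red blood cells (2) had no gene with P under 0.01 in limma, edgeR or DESeq2, and none with P under 0.05.

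In the hypothalamus transcripts of these 10 genes, other than *Txnrd1*, were present at low to moderate levels. Together the 10 genes held 3422 of 20734916 reads, or 0.0165%. A median member had 117 reads over the 8 libraries, against 211 for a median gene symbol. Because a transcript is counted at its end, these levels were not divided by transcript length. *Txnrd1*, the cytosolic thioredoxin reductase, was by far the highest, with a mean of 200.7 normalized counts that placed it at percentile 89.6 of all gene symbols. *Srxn1* (47.8), *Gclm* (38.2) and *Gclc* (31.5) followed at percentiles 65.2, 60.4 and 56.2. *Ahr* (15.95), *Tiparp* (12.99), *Nqo1* (12.1), *Nfe2l2* (10.8) and *Hmox1* (9.16) lay between percentiles 31.2 and 41.9, and their ranges over the 8 libraries overlapped. *Cyp1b1* had 16 reads in all, which is the lowest number that any site in these files had.

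**Figure D1:**
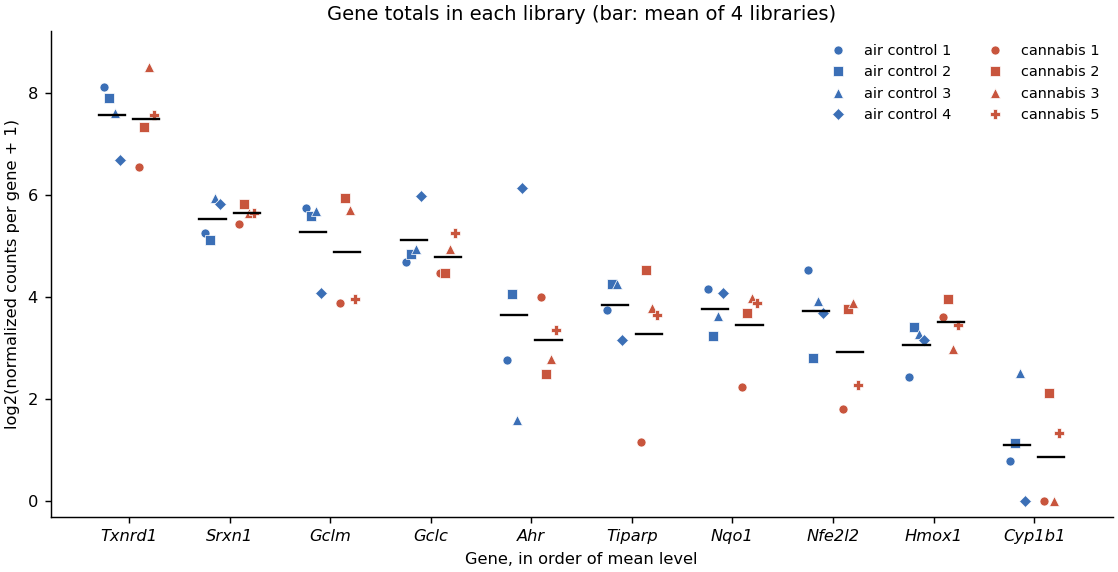
Gene totals of the 10 genes in each library, as log2(normalized counts + 1) on the vertical axis and genes in order of mean level on the horizontal axis; blue symbols are the 4 air-treated controls, red symbols the 4 cannabis-exposed rats, and bars the means of 4 libraries. The groups overlap in every gene, and cannabis 1 (red circle) is the lowest library in 6 of the 10 genes, a count without a computed share over all gene symbols.

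No gene of the list differed between cannabis-exposed rats and air-treated controls beyond the spread between rats. In the limma fit of all gene totals, 0 of 10 had P under 0.01 (0.278% of the 18003 gene symbols passed), 0 of 10 had P under 0.05 (2.41% of all) and 0 of 10 had an adjusted P under 0.1 (0.00555% of all). With edgeR and DESeq2 on the recovered reads, 0 of 10 passed P under 0.05 as well, and the lowest P was 0.133 and 0.088. The groups overlapped in all 10 genes, where 1.98% of all gene symbols had groups that did not. Since such calls are rare among all genes, the count of 0 does not set these genes apart. The estimate was lower in cannabis-exposed rats for 8 genes and higher for *Hmox1* and *Srxn1*, with a median log2 fold change of -0.33 against 0.053 over all gene symbols. Without air control 4 and cannabis 1 it was lower for 5 genes and higher for 5. Cannabis 1 was the lowest library in 6 of the 10 genes. How often it was the lowest over all gene symbols was not computed, so this count cannot be called particular to these genes. Without cannabis 1 alone the estimates of *Nqo1*, *Txnrd1*, *Tiparp* and *Cyp1b1* turned higher, while *Gclc* stayed lower at -0.22 and *Ahr* was lower at -0.76.

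The width of the intervals says what these data could have missed. On the scale of log2(normalized counts + 1), which understates changes at low counts, the 95% interval of the cannabis effect ended below a 2-fold rise for 7 genes and reached or passed it for 3. For *Txnrd1* the interval was 0.529 to 1.67 times the control level, for *Gclm* 0.349 to 1.65 times, for *Srxn1* 0.715 to 1.61 times and for *Gclc* 0.475 to 1.34 times. *Nfe2l2* (1.31), *Nqo1* (1.58) and *Tiparp* (1.69) also had upper bounds under 2, and those of *Hmox1* (2.50) and *Ahr* (2.26) lay above. *Cyp1b1* is the other gene whose interval passed 2, but its levels were too low for a fold to be read. Without air control 4 and cannabis 1, the interval ended below a 2-fold rise for 6 genes, as the upper bound of *Nqo1* became 2.02. A fall to 0.5 times the control level lay within the interval for 7 genes, and for 4 genes without those libraries.

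**Figure D2:**
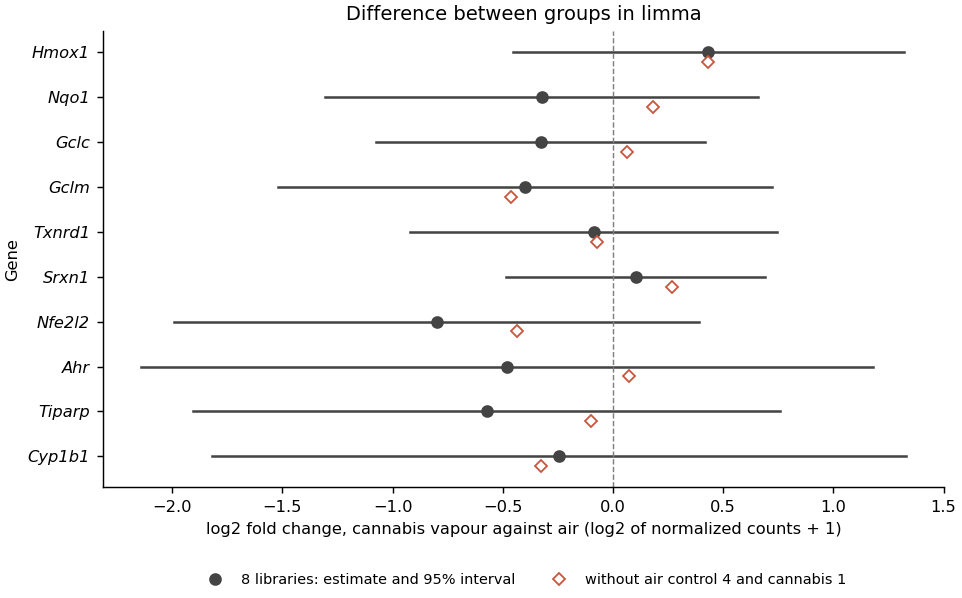
Log2 fold change of each gene total, cannabis-exposed rats against air-treated controls, on log2(normalized counts + 1); dots and lines are the limma estimate and its 95% interval from 8 libraries, and open diamonds the estimate without air control 4 and cannabis 1. All 10 intervals cross 0, and the estimates of *Nqo1*, *Gclc* and *Ahr* change sign when the 2 libraries are left out.

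*Hmox1* encodes heme oxygenase 1, which breaks down heme and is among the most inducible Nrf2 targets. Its single site had 4.39, 9.58, 8.73 and 7.94 normalized counts in air controls 1 to 4 and 11.2, 14.6, 6.89 and 9.98 in cannabis 1, 2, 3 and 5. Of the 4 cannabis-exposed rats 3 lay above the median of the controls, but cannabis 3 fell among them. The means were 10.7 ± 3.19 in cannabis-exposed rats and 7.66 ± 2.28 in controls (SD, n = 4). This gave a log2 fold change of 0.43 (standard error, SE, 0.41, limma P = 0.311, adjusted P = 0.999, exact permutation P = 0.229). The values rested on 4 to 22 reads per library, and the 95% Poisson interval of the 6 reads in air control 1, the lowest value, was 1.61 to 9.55 normalized counts. Such intervals cover counting error only.

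*Nqo1*, a quinone reductase shared as a target by both transcription factors, also had a single site. It had 16.8, 8.38, 11.4 and 15.9 normalized counts in air controls 1 to 4 and 3.73, 11.96, 14.8 and 13.8 in cannabis 1, 2, 3 and 5. Cannabis 1, with 3 reads, was the only library under 8 normalized counts, and the other cannabis-exposed rats lay within the range of the controls. The log2 fold change was -0.32 (SE 0.46, limma P = 0.491, adjusted P = 0.999, exact permutation P = 0.600). It became 0.081 without cannabis 1.

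*Gclc* and *Gclm* encode the catalytic and the modifier subunit of glutamate-cysteine ligase, the rate-limiting enzyme of glutathione synthesis. *Gclc* totals were 24.9, 27.5, 29.5 and 61.6 normalized counts in air controls 1 to 4 and 21.1, 21.3, 29.5 and 36.9 in cannabis 1, 2, 3 and 5. Air control 4 was the only library above 37, and without it the log2 fold change of *Gclc* moved from -0.33 (SE 0.35, limma P = 0.362, exact permutation P = 0.429) to -0.041. The other end of the range with each library left out was -0.48, without cannabis 5. *Gclm* totals were 52.6, 46.7, 50.4 and 15.9 in air controls 1 to 4 and 13.7, 60.4, 51.2 and 14.6 in cannabis 1, 2, 3 and 5. *Gclm* thus had low levels in air control 4, cannabis 1 and cannabis 5 and levels from 46.7 to 60.4 in the other libraries, with both kinds present in each group. Its log2 fold change was -0.40 (SE 0.52, limma P = 0.455, exact permutation P = 0.743). With each library left out in turn it ranged from -0.80 without air control 4 to -0.067 without cannabis 1. Cannabis 1 was the lowest library for both subunits, whereas air control 4 was the highest for *Gclc* and among the 3 lowest for *Gclm*.

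*Txnrd1* reduces thioredoxin, and *Srxn1*, sulfiredoxin, restores overoxidized peroxiredoxins. *Txnrd1* totals were 276.3, 235.8, 192.7 and 101.3 normalized counts in air controls 1 to 4 and 91.9, 159.4, 359.2 and 188.9 in cannabis 1, 2, 3 and 5. Cannabis-exposed rats held both the lowest and the highest library, and air control 4 and cannabis 1 were the only libraries under 150. Its log2 fold change was -0.088 (SE 0.39, limma P = 0.823, exact permutation P = 0.857) and ranged from -0.43 without cannabis 3 to 0.23 without cannabis 1. With 51 to 378 reads per library, *Txnrd1* was the best counted gene of the list. *Srxn1* totals were 37.3, 33.5, 60.4 and 55.6 in air controls 1 to 4 and 42.2, 55.1, 49.2 and 49.2 in cannabis 1, 2, 3 and 5. All cannabis-exposed rats lay within the range of the controls. *Srxn1* had the narrowest interval of the 10 genes, with a log2 fold change of 0.10 (SE 0.27, limma P = 0.712, exact permutation P = 0.600). It was -0.038 without air control 2.

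*Nfe2l2* had the largest estimate of the list in limma, while in edgeR and DESeq2 that of *Ahr* was larger. The gene for Nrf2 had 21.9, 5.99, 14.1 and 11.9 normalized counts in air controls 1 to 4 and 2.48, 12.6, 13.8 and 3.84 in cannabis 1, 2, 3 and 5. Cannabis 1 and 5, with 2 and 5 reads, were the lowest libraries, and cannabis 2 and 3 lay inside the range of the controls. The log2 fold change was -0.80 (SE 0.55, 95% interval -1.99 to 0.39, limma P = 0.171, adjusted P = 0.999, exact permutation P = 0.257). With each library left out in turn it stayed lower, from -1.12 without cannabis 3 to -0.42 without cannabis 1. Nrf2 is mainly controlled through the stability of its protein, which these libraries do not measure.

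*Ahr*, the receptor gene, had 5.85, 15.6, 2.01 and 69.5 normalized counts in air controls 1 to 4 and 14.9, 4.65, 5.90 and 9.22 in cannabis 1, 2, 3 and 5. The value of air control 4 came from 35 reads, and its 95% Poisson interval of 48.4 to 96.7 lay above those of all other libraries. The log2 fold change of -0.48 (SE 0.77, limma P = 0.542, exact permutation P = 0.686) turned to 0.35 when that library was left out. With edgeR it was -1.33 and with DESeq2 -1.38, with the lowest P of the list in each. Its size thus differed between models, but edgeR and DESeq2 were not refitted without air control 4. *Tiparp* encodes a mono-ADP-ribosyltransferase that represses the receptor in a feedback loop. It had 12.4, 18.0, 18.1 and 7.94 normalized counts in air controls 1 to 4 and 1.24, 21.9, 12.8 and 11.5 in cannabis 1, 2, 3 and 5. Cannabis 1 held a single read, and cannabis 2 was the highest library. Its log2 fold change was -0.57 (SE 0.62, limma P = 0.370, exact permutation P = 0.686) and 0.13 without cannabis 1, with -0.30 in edgeR and -0.24 in DESeq2.

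*Cyp1b1*, a cytochrome P450 that oxidizes polycyclic hydrocarbons, was at the limit of detection. It had 1, 1, 7 and 0 reads in air controls 1 to 4 and 0, 5, 0 and 2 reads in cannabis 1, 2, 3 and 5, and only air control 3 and cannabis 2 had more than 3 reads. A library without a read allows up to 5.96 normalized counts in air control 4, 3.73 in cannabis 1 and 2.95 in cannabis 3, taken as 3 reads. Its fitted value, counted above among the lower estimates, depends on the pseudocount and is not a measured fold, and a difference was not detectable at this depth.

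Sites within the genes were described next, because the choice of a polyadenylation site sets the 3′ end of a transcript. *Hmox1*, *Nqo1*, *Tiparp* and *Cyp1b1* had 1 site each and the other 6 genes from 2 to 4, and the share of members with 1 site, 40.0%, was close to the 39.0% of all gene symbols. Of the 21 sites 15 had fewer than 100 reads over the 8 libraries. In limma 0 of 21 sites had P under 0.01 (0.381% of all 98356 sites did), 0 of 21 had P under 0.05 (3.03% of all) and 0 of 21 had an adjusted P under 0.1 (0.00102% of all), with 0 of 21 at P under 0.05 in edgeR and DESeq2 too. In limma the lowest P was 0.061, at the leading site of *Nfe2l2*, and over the 21 sites the lowest was 0.054 in edgeR and 0.080 in DESeq2. That site went from 9.74 ± 6.21 normalized counts in controls to 3.88 ± 3.35 in cannabis-exposed rats (SD, n = 4), a log2 fold change of -1.16 (exact permutation P = 0.143). The second *Nfe2l2* site had 3.75 ± 4.20 and 4.30 ± 4.28 (SD, n = 4), a log2 fold change of 0.20.

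Of the 21 sites 7 had a mean of at least 10 normalized counts and at least 10% of their gene, and no gene had more than 1 such site. *Txnrd1* and *Srxn1* transcripts ended almost entirely at their leading sites, with at least 95% and 88.2% of the counts of the gene in every library. At the minor *Srxn1* site air controls 1 to 4 had 4.39, 3.59, 4.70 and 0 normalized counts and cannabis 1, 2, 3 and 5 had 0, 0.664, 0.984 and 1.54. The leading site held 92.4% ± 5.32 of *Srxn1* among controls and 98.4% ± 1.32 among cannabis-exposed rats (SD, n = 4, exact permutation P = 0.143, 0.857 after Benjamini-Hochberg adjustment over the leading sites of 6 genes). This test of leading sites was added after the data were seen.

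*Gclm* and *Gclc* divided their reads over more sites. The leading *Gclm* site had 38.0, 40.7, 36.3 and 7.94 normalized counts in air controls 1 to 4 and 11.2, 40.5, 41.3 and 5.38 in cannabis 1, 2, 3 and 5. The 3 libraries with low *Gclm* totals were also the lowest at this site. The second *Gclm* site had 5.96, 2.48 and 8.45 in the 3 libraries with low totals, against 3.66 to 17.9 in the others. In *Gclc* the leading site had 51.6 in air control 4 and 3.32 to 20.7 in the other libraries. That site held 51.5% ± 22.8 of *Gclc* among controls and 40.1% ± 18.8 among cannabis-exposed rats (SD, n = 4, exact permutation P = 0.486). At *Ahr* the leading site held 34 of the 35 reads of air control 4 and none in air control 3 and cannabis 3. No share of a leading site in *Gclc*, *Gclm*, *Txnrd1*, *Srxn1*, *Nfe2l2* or *Ahr* had an exact P under 0.05, and the smallest P that 4 against 4 rats allow is 0.0286.

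**Figure D3:**
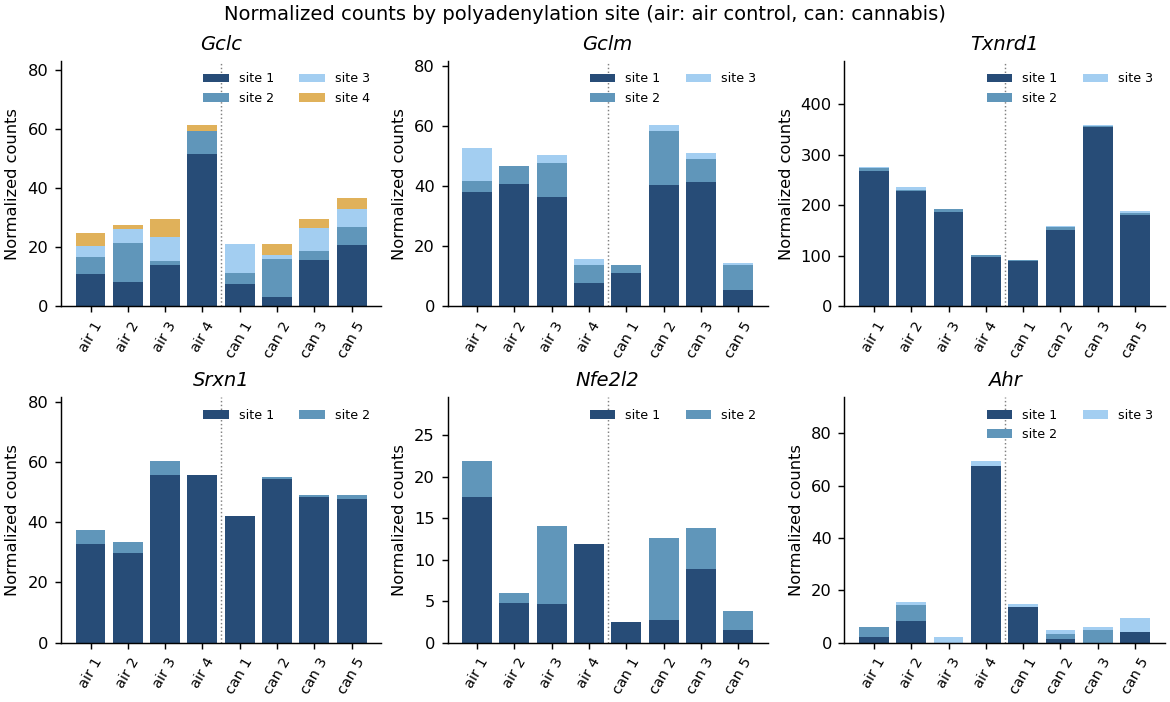
Normalized counts of each polyadenylation site, stacked, in the 8 libraries for the 6 genes with more than 1 site; air controls stand left of the dotted line and cannabis-exposed rats right of it, and sites are numbered by mean level. The leading *Gclm* site is at or below 11.2 in air 4, can 1 and can 5, and the leading sites of *Gclc* and *Ahr* are highest in air 4.

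The other genes of both routes were read from 3 lists, of 62 genes in all, of which 56 had rows here. None of the 56 passed P under 0.01 in limma, edgeR or DESeq2, where 0.278% of all gene symbols did in limma. At P under 0.05 limma had 1 of the 56, against 2.41% of all gene symbols. With edgeR and DESeq2 the count was 2 each, *Ftl1* and *Cyp1a2*. The share of all gene symbols at that threshold was not computed for edgeR and DESeq2, so these counts cannot be set against a background. Among Nrf2 regulators and partners 0 of 11 passed P under 0.05, with a median log2 fold change of 0.21. *Keap1*, the inhibitor of Nrf2, had 274.6 ± 60.1 normalized counts among controls and 319.9 ± 72.1 among cannabis-exposed rats (SD, n = 4), a log2 fold change of 0.21 (95% interval -0.29 to 0.71). *Sqstm1*, an autophagy receptor that binds Keap1, had a log2 fold change of -0.091 (interval -0.64 to 0.45). *Bach1* was not analysed here.

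Among the other Nrf2 targets 0 of 30 passed P under 0.05 in limma, with a median log2 fold change of 0.15. *Slc7a11*, the cystine transporter that feeds glutathione synthesis, had 46.8 ± 21.3 and 43.7 ± 14.8 normalized counts in controls and cannabis-exposed rats (SD, n = 4), a log2 fold change of 0.0012 (interval -0.84 to 0.85). The ferritin chains store iron released by heme breakdown. *Ftl1*, the light chain, had 8.77, 14.4, 10.1 and 11.9 normalized counts in air controls 1 to 4 and 9.93, 42.5, 16.7 and 29.95 in cannabis 1, 2, 3 and 5. Of the cannabis-exposed rats 3 lay above all controls and cannabis 1 lay among them. The log2 fold change of *Ftl1* was 0.90 (SE 0.44, limma P = 0.059, adjusted P = 0.999, exact permutation P = 0.143), with P = 0.020 in edgeR and 0.017 in DESeq2. Without cannabis 1 it was 1.25 (adjusted P = 0.914 in limma, unadjusted P = 0.00785, for 3 against 4 rats with no exact test). *Fth1*, the heavy chain, had 2342.7 ± 386.9 and 3501.5 ± 1829.3 (SD, n = 4), a log2 fold change of 0.47 (interval -0.16 to 1.10), and its highest library was also cannabis 2, at 6180.5. Ferritin genes have near-identical processed copies in rodent genomes, so reads of *Ftl1* and *Fth1* could be split between copies.

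In the aryl hydrocarbon receptor list, 1 of 15 genes, *Cyp1a2*, had P under 0.05 in limma, and the median log2 fold change was -0.035. It is named after its values were seen. *Cyp1a2*, a cytochrome P450 classically induced through the receptor, had 29.2, 19.2, 47.0 and 29.8 normalized counts in air controls 1 to 4 and 18.6, 23.2, 11.8 and 12.3 in cannabis 1, 2, 3 and 5. Only cannabis 2 lay above the lowest control. The log2 fold change was -0.87 (SE 0.36, 95% interval -1.65 to -0.092, limma P = 0.031, adjusted P = 0.999, exact permutation P = 0.0571). The estimate was lower in cannabis-exposed rats and did not pass the adjusted threshold, and its cause was not tested. For *Arnt*, the partner of the receptor, the log2 fold change was -0.090 (interval -0.94 to 0.76), for its brain paralog *Arnt2* 0.15 (interval -0.52 to 0.82) and for the repressor *Ahrr* -0.036 (interval -1.06 to 0.99). *Cyp1a1* was not analysed here.

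**Figure D4:**
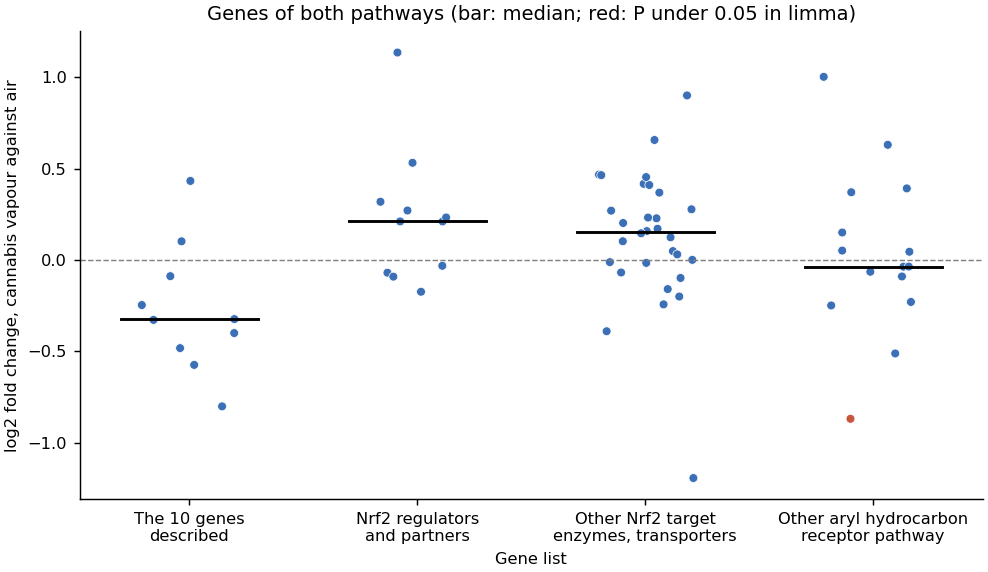
Log2 fold change of gene totals, cannabis-exposed rats against air-treated controls, on log2(normalized counts + 1), for the 10 genes described and for 11, 30 and 15 other genes of both routes; each point is a gene, bars are medians, and red marks P under 0.05 in limma. The medians are -0.33, 0.21, 0.15 and -0.035, and *Cyp1a2* is the only red point.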

How the data were processed

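Before deposit, the authors quality-filtered reads (FASTX Toolkit), removed Ts at read starts, aligned the rest with TMAP against Rnor_6.0, merged nearby read ends into APA sites and named genes with Cuffcompare. The deposited values are normalized counts per site and library, a signal scaled by DESeq2 size factors, and replicates were not pooled. Files were joined by row, since their symbol columns were identical. Reads were recovered from the smallest step of each library, and every value was whole to within 1.9e-05 reads. Gene totals are sums over sites with a symbol. Site positions were not used here. Gene totals and sites were tested with limma 3.58.1 (R 4.3.3; lmFit and eBayes with trend, pseudocount 1, Benjamini-Hochberg over all features). The calls, P under 0.01 and adjusted P under 0.1, follow the study. Single values had a two-sided exact permutation test. edgeR 4.0.16 (quasi-likelihood, TMM) and DESeq2 1.42.0 on recovered reads were alternatives, and edgeR gave 54 gene totals with P under 0.01, limma 50 and DESeq2 73. The fit was tested on simulated data. Named genes are all members, sites with a mean of at least 10 and 10% of their gene, and pathway genes set by name or by P under 0.01. The values of 1 pathway gene are not reported here. The single sites of *Hmox1* and *Cyp1b1*, other sites under that limit and *Cyp1a2* go beyond this or were chosen after values were seen. Members and lists were chosen with earlier results of these data known. Exact tests ran in Python 3.11.15 with scipy 1.17.1, and plots were drawn with matplotlib 3.10.9.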

Additional observations from a re-analysis of the deposited data

Results flagged for a closer look

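Dixon's test for a single far value among 4 was run on 10 gene totals and 5 leading sites in each group. It marked 5 values, all in air control 4, where about 1 in 20 groups would be marked by chance. The marks are not independent, since *Gclc* and *Gclm* were marked both as totals and at their leading sites. The *Gclc* total was 61.6 normalized counts there, against 24.9 to 29.5 in the other controls. The *Gclm* total was 15.9, against 46.7 to 52.6. The leading *Gclc* site had 51.6, the leading *Gclm* site 7.94 and the leading *Ahr* site 67.5 normalized counts. Over 12114 gene totals with a mean of at least 10, air control 4 was the far high value in 2.27% and the far low value in 1.68%, the highest shares of any library. Air control 4 had the fewest reads, and the part of depth in these values was not tested.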

How the results depend on the processing

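The counts of members with P under 0.01 were 0 for genes and 0 for sites under every setting fitted, and none of 238 repeated log2 fold changes passed P under 0.01. Of these, 217 kept their direction and 21 reversed. Without air control 4 and cannabis 1, an alternative chosen after seeing the data, *Nqo1* was 0.18, *Gclc* 0.064 and *Ahr* 0.074. With the replicate number as a block *Ahr* was 0.29 and its leading site 0.063, and edgeR gave 0.0040 at the leading *Txnrd1* site. With each library left out, the ranges of those that reversed were -0.50 to 0.081 for *Nqo1*, -0.43 to 0.23 for *Txnrd1*, -0.038 to 0.24 for *Srxn1*, -1.16 to 0.35 for *Ahr*, -0.99 to 0.13 for *Tiparp*, -0.66 to 0.22 for *Cyp1b1*, -1.03 to 0.033 for the leading *Gclm* site, -0.44 to 0.22 for that of *Txnrd1* and -1.83 to 0.21 for that of *Ahr*. Other pathway genes with P under 0.01 numbered 0 to 1 with each library left out, 1 without air control 4 and cannabis 1 (*Ftl1* in both cases) and 1 at P under 0.05. With the block no member was past P under 0.01, and all gene totals past it fell from 50 to 24. Air control 4 and cannabis 5 have no same-numbered counterpart, so the block estimates came from replicates 1, 2 and 3 only. Same-numbered libraries showed no sign of deviating together (correlations -0.27, 0.089 and -0.083). So few correlations cannot exclude that the numbers pair the rats. With a mean of at least 10 required, *Hmox1* and *Cyp1b1* could not be fitted. Shares over major sites only were not run, since no gene had more than 1. Depth limits *Cyp1b1* (16 reads in all), *Hmox1* (82), *Ahr* (96), *Nfe2l2* (102), *Nqo1* (109), *Tiparp* (125) and the minor sites.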
